A study of Saccharomyces cerevisiae with 16 samples.

Results

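The 10 genes described here encode enzymes of ergosterol synthesis in the budding yeast Saccharomyces cerevisiae: HMG1 and HMG2, which are isoforms of one enzyme, and ERG1, ERG2, ERG3, ERG5, ERG6, ERG11, ERG25 and ERG26. They were taken by name as members of the pathway, with no threshold on their values, and each had 1 probe set among the 5498 probe sets, standing for 5449 genes, that were tested. Their locus tags place ERG2 (YMR202W), ERG5 (YMR015C), ERG6 (YML008C) and HMG1 (YML075C) on chromosome XIII, ERG3 (YLR056W) and HMG2 (YLR450W) on chromosome XII, ERG1 (YGR175C), ERG25 (YGR060W) and ERG26 (YGL001C) on chromosome VII and ERG11 (YHR007C) on chromosome VIII. The data are 16 Affymetrix arrays (Yeast Genome 2.0) of total RNA, with 2 arrays per strain and 8 strains, all cultured at 30 °C until the OD600 reached 0.5. Of the 7 mutant strains, each named for its subunit of the chaperonin CCT, MA1 carries D96E in CCT1, MA2 D90E in CCT2, MA3 D91E in CCT3, MA5 D117E in CCT5, MA6 D89E in CCT6, MA7 D96E in CCT7 and MA8 D98E in CCT8, and the wild type (WT) carries none of these. All strains, WT included, hold a CBP tag at CCT6, marked with URA3 in MA1, MA2, MA3, MA5, MA7 and MA8, with KANMX4 in MA6 and with KanMX4 in WT, and each mutated gene is marked with KANMX4. They also share gal2, the auxotrophy alleles trp1, ura3-52, leu2 and leu2-3, and the vacuolar protease alleles pep4-3, prc467 and prb1-1122. The labels do not say whether replicates were separate cultures or whether a strain was 1 clone, so spread between replicates may be technical in part.

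Strain labels were contradicted by the marker gene: URA3 was 7.23 to 8.12 on 4 arrays and 11.70 to 12.05 on 12, and opposed the genotype of the label on 6 of the 16 (MA2 replicate 2, MA5 replicate 1, both MA6 arrays, MA8 replicate 1 and WT replicate 2), so strain names mean the arrays labelled with them. The a-cell genes were expressed on every array, with STE2 at 11.90 or more and BAR1, the lowest of those listed, at 8.69 or more. Of the alpha-cell genes, the alpha-factor gene MF(ALPHA)1 stayed at 4.70 or less and STE3 was 5.13 to 7.06. Fission yeast probe sets on the same arrays had medians of 4.33 to 4.43, against 10.46 to 10.50 for the tested budding yeast probe sets. All levels are log2 values normalized by the authors, and differences between arrays are differences in log2 units.

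Ergosterol is the main sterol of yeast membranes and the counterpart of cholesterol. Its synthesis starts from acetyl-CoA, passes through mevalonate, whose formation by HMG-CoA reductase is the controlled early step, then through farnesyl pyrophosphate to squalene, and ends with a series of changes to the ring system and side chain. Several of the later steps consume molecular oxygen, some of them on heme proteins, so sterol synthesis stops without oxygen and the cell then takes up sterol from outside. The transcription factors Upc2 and Ecm22 bind the promoters of sterol genes, and the heme-responsive factor Hap1 acts on some of them. TIR1 encodes a cell wall mannoprotein that is known to be induced when oxygen is scarce.

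TIR1 divided the arrays. Its level was 9.21 to 10.87 on 6 arrays and 12.35 to 13.27 on the remaining 10, which left a 2.80-fold gap. The 6 low-TIR1 arrays were labelled MA1 replicate 1, MA3 replicate 1, MA5 replicate 1, MA6 replicate 1, MA7 replicate 2 and WT replicate 1, so 6 strains had 1 array on each side. Because a measured value parted these arrays, differences between the 2 sets are given as descriptions without a test.

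The sterol genes moved little across this division. The span from lowest to highest array ran from 0.10 for ERG6 to 0.51 for ERG1, or 1.07-fold to 1.42-fold, while the median span of all tested probe sets was 0.50. The SD over 16 arrays had a median of 0.070 over the 10 genes, against 0.137 over all tested probe sets and 0.097 over the 1043 with a mean of at least 12. Whether probe brightness near the top of the scale limits these spans was not tested.

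**Figure D1:**
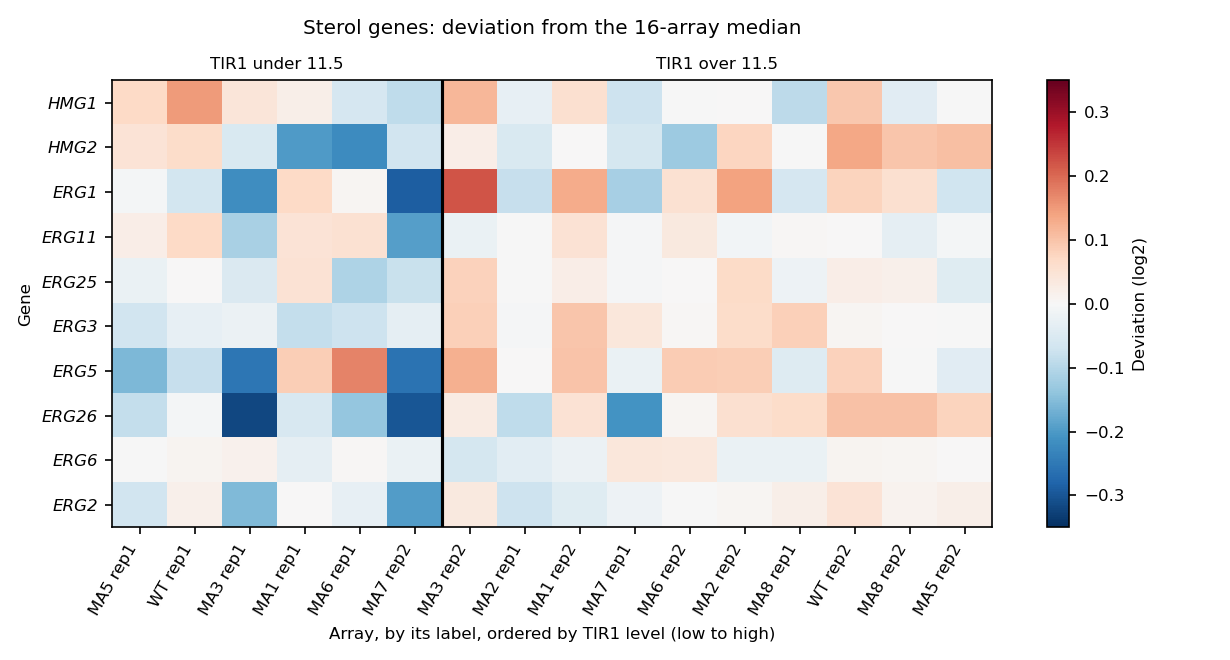
Deviation of each sterol gene from its own median over 16 arrays (colour, log2), with genes in rows and arrays in columns ordered by TIR1, the 6 low-TIR1 arrays left of the black line and the other 10 right of it. The lowest deviations belong to MA3 rep1 and MA7 rep2, where the level of ERG26 was 11.76 and 11.78, and the row of ERG6 is nearly uniform.

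HMG1 and HMG2 encode the HMG-CoA reductase isoforms; Hmg1 is the more used one in air and Hmg2 is known for its regulated degradation. HMG1 had a lowest value of 12.49, a median of 12.61 and a highest of 12.73 on the low-TIR1 arrays, against 12.49, 12.58 and 12.70 on the others. The HMG1 ranges coincided almost fully. HMG2 had 10.85, 11.01 and 11.14 on the low-TIR1 arrays, against 10.94, 11.08 and 11.21 on the others. Its 2 lowest arrays, MA6 replicate 1 at 10.85 and MA1 replicate 1 at 10.87, were both low-TIR1 arrays, and the other 4 of that set lay within the range of the rest.

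Among the oxygen-consuming enzymes, ERG1 (squalene epoxidase, the target of terbinafine) had a lowest value of 12.94, a median of 13.19 and a highest of 13.30 on the low-TIR1 arrays, against 13.11, 13.28 and 13.45 on the others. ERG11 (the cytochrome P450 that demethylates lanosterol, the target of azole drugs) had 13.41, 13.63 and 13.67 on the low-TIR1 arrays, against 13.57, 13.60 and 13.65 on the others. Low-TIR1 arrays thus held both the lowest and the highest ERG11 values. ERG25, the methyl sterol oxidase, had 13.80, 13.87 and 13.96 on the low-TIR1 arrays, against 13.87, 13.92 and 13.99 on the others. ERG5, another P450, which desaturates the side chain, had 12.43, 12.57 and 12.86 on the low-TIR1 arrays, against 12.64, 12.73 and 12.81 on the others. Of the low-TIR1 arrays, 4 were below every other array for ERG5 and 1, MA6 replicate 1, was above all of them.

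ERG3, the sterol desaturase of the ring system, was the only one of the 10 genes whose arrays did not overlap. It had 13.17, 13.21 and 13.24 on the low-TIR1 arrays, against 13.25, 13.28 and 13.35 on the others. The gap between the sets was 0.016, the medians differed by -0.072, and after quantile normalization the sets overlapped by 0.016. Among all tested probe sets, 1.51% lay lower on all 6 low-TIR1 arrays than on all 10 others and 0.728% lay higher, and with 1 of 10 genes resting on so small a gap nothing is read from the count.

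The remaining enzymes use no molecular oxygen. ERG26, the decarboxylating sterol dehydrogenase that works beside Erg25, had 11.76, 11.97 and 12.07 on the low-TIR1 arrays, against 11.87, 12.13 and 12.18 on the others, a median difference of -0.16 (1.12-fold) that ERG5 shared and that no other of the 10 genes exceeded. All 6 low-TIR1 arrays were below the median of the others for ERG26, but 4 of them were within their range. ERG6, the sterol methyltransferase that distinguishes fungal sterols from cholesterol, had 13.73, 13.76 and 13.78 on the low-TIR1 arrays, against 13.70, 13.75 and 13.80 on the others. ERG2, the sterol isomerase, had 13.73, 13.88 and 13.94 on the low-TIR1 arrays, against 13.85, 13.93 and 13.97 on the others.

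Within the 6 strains that had 1 array on each side, the low-TIR1 array minus the other array of the same label was below 0 in every strain for 3 of the 10 genes, where 7.29% of all tested probe sets were. ERG26 differed by -0.35 in MA3, -0.16 in MA5, -0.14 in MA6, -0.11 in MA1, -0.091 in MA7 and -0.11 in WT. ERG3 differed by -0.18 to -0.033 and HMG2 by -0.20 to -0.0047. None of the 10 was above 0 in every strain, where 4.73% of tested probe sets were, and ERG11 was above 0 in 3 strains and below in 3. Labels that URA3 contradicts underlie these pairs, and the lists of genes were chosen with results of these arrays known.

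Signs of RNA quality were read from 4 control genes. The 3' minus 5' difference of the ACT1 control probe sets was 0.41 to 0.45 on the low-TIR1 arrays and 0.38 to 0.48 on the others. That of SPT15 was 1.21 to 1.65 on the low-TIR1 arrays and 1.47 to 1.71 on the others, and that of WBP1 1.36 to 1.68 on the low-TIR1 arrays and 1.55 to 1.70 on the others. That of RIP1 was 0.25 to 0.49 on the low-TIR1 arrays, highest on MA7 replicate 2, and 0.28 to 0.42 on the others. For SPT15, WBP1 and RIP1 the low-TIR1 arrays thus had the wider range. Their part in the differences of the sterol genes was not tested.

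The lowest values of 5 of the sterol genes came from 2 arrays. MA3 replicate 1 and MA7 replicate 2 were the 2 lowest arrays for 5 of the 10 genes, ERG1, ERG2, ERG5, ERG11 and ERG26, against 9.97% of all tested probe sets. ERG1 was 13.01 on MA3 replicate 1 and 12.94 on MA7 replicate 2, with the next array at 13.11. ERG11 was 13.49 and 13.41 on these arrays, with the next at 13.57. ERG2 was 13.77 and 13.73, with the next at 13.85, and ERG5 was 12.43 on both, with the next at 12.53. On MA7 replicate 2 all 10 genes were below their 16-array median (median deviation -0.14, where that of all tested probe sets was -0.026), and on MA3 replicate 1 8 of them were (-0.084, against -0.045).

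These arrays stand apart in another way. The tested probe sets of chromosome X had a median deviation of 0.71 on MA3 replicate 1 and 0.77 on MA7 replicate 2, or 1.64-fold and 1.71-fold, and of -0.030 to 0.022 on the other 14 arrays. None of the 10 genes lies on chromosome X, and the part of this shift in their lower values was not tested. Without these 2 arrays ERG3 was 13.17 to 13.23 on the remaining 4 low-TIR1 arrays, against 13.25 to 13.35 on the others. This order was fixed in advance, since ERG3 was already lower on all 6. Of tested probe sets, 2.42% were lower on these 4 arrays. The other 9 genes overlapped. In the pathway outside the 10, ERG4 (13.07 to 13.18, against 13.22 to 13.38) was lower, as it already was on all 6. ERG8 (12.23 to 12.28, against 12.05 to 12.21) was then higher, as were 2.47% of tested probe sets.

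Another pair of arrays was lowest for HMG2 and ERG3. MA1 replicate 1 and MA6 replicate 1 were the 2 lowest arrays for these 2 genes, against 12.4% of tested probe sets, and for ERG7 (lanosterol synthase) outside the 10. WT replicate 1 and MA5 replicate 1 were the 2 lowest or the 2 highest arrays for none of the 10, while they were the lowest for 17.4% and the highest for 23.4% of tested probe sets.

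The other enzymes of the pathway had spans of similar size. Over all 23 pathway genes measured the median span was 0.24. The median difference between the low-TIR1 arrays and the others was -0.020, where over all tested probe sets it was -0.016. The parts of the pathway differed in sign: it was -0.065 over the 10 genes, 0.043 over the 8 other genes up to squalene and -0.084 over the 5 later genes. Below 0 were 7 of the 10, 2 of the 8 and 4 of the 5, and 3140 of 5498 tested probe sets. Of the 8 genes from acetyl-CoA to squalene, none lay wholly above or below the other arrays on the low-TIR1 arrays. MVD1 (mevalonate pyrophosphate decarboxylase) was highest on MA5 replicate 1 at 12.99 and WT replicate 1 at 12.96, which also had the 2 highest values of ERG10 (acetoacetyl-CoA thiolase) and ERG24 (sterol reductase) and the 2 lowest of ERG9 (squalene synthase). ERG20 (farnesyl pyrophosphate synthase) lies on chromosome X and was 13.95 on MA3 replicate 1 and 14.06 on MA7 replicate 2, against at most 13.67 elsewhere; these were the 2 highest arrays for 7.2% of tested probe sets. IDI1 (isopentenyl diphosphate isomerase) was highest on MA1 replicate 1 and MA6 replicate 1, as were 17.8% of tested probe sets, and was higher on the low-TIR1 array in all 6 strains by 0.0016 to 0.10.

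Of the 5 later genes, ERG4, which reduces the side chain in the last step, was lower on all 6 low-TIR1 arrays. It had a lowest value of 13.04, a median of 13.09 and a highest of 13.18 on these, against 13.22, 13.27 and 13.38 on the others, a median difference of -0.19. ERG27 and ERG28 were lower on the low-TIR1 array in all 6 strains, by 0.00052 to 0.15 for ERG27 (sterol reductase) and by 0.059 to 0.37 for ERG28, the membrane protein that holds Erg25, Erg26 and Erg27 together. NCP1, the reductase that passes electrons to the P450 enzymes, had 13.01, 13.06 and 13.11 on the low-TIR1 arrays, against 13.12, 13.19 and 13.25 on the others. The gaps of ERG4 (0.038) and NCP1 (0.013) closed after quantile normalization. CYB5 (cytochrome b5) had no such order: on the low-TIR1 arrays it had a lowest value of 11.55, a median of 12.19 and a highest of 12.45, against 11.67, 12.04 and 12.18 on the others. DAP1, a heme-binding partner of Erg11, reached 12.11 in MA1 replicate 1 and 12.13 in MA6 replicate 1, with no other array above 11.73.

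Regulators had a median span of 0.65 and genes of sterol uptake and storage one of 1.13. UPC2, the sterol-sensing activator, had a lowest value of 8.62, a median of 8.98 and a highest of 9.11 on the low-TIR1 arrays, against 9.44, 9.60 and 10.04 on the others. HAP1 had 10.14, 10.32 and 10.65 on the low-TIR1 arrays, against 10.80, 11.00 and 11.05 on the others. These were the only regulators of 8 without overlap, both lower (as 1.51% of all tested probe sets were, with 0.728% higher), with median differences of -0.63 and -0.68, and both gaps remained after quantile normalization. ECM22, the paralog of UPC2, had a median difference of -0.38 and overlapping arrays. MOT3, a repressor of hypoxic genes, had 0.33, NSG2 0.15 and NSG1 0.032, also with overlap. MOT3 and NSG2 were higher on the low-TIR1 array in all 6 strains with 1 array on each side, as 4.73% of tested probe sets were. UPC2, ECM22 and HAP1 were lower in all 6, as 7.29% were. ROX1, the heme-dependent repressor of hypoxic genes, differed by -0.065 and SUT1 by -0.15.

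AUS1, the importer of external sterol, had 9.30, 9.66 and 9.79 on the low-TIR1 arrays, against 10.34, 11.18 and 11.41 on the others, a median difference of -1.51 (2.85-fold). PDR11, the related transporter, was at most 9.03 on 4 low-TIR1 arrays but 9.87 on MA1 replicate 1 and 9.73 on MA6 replicate 1, within the 9.57 to 9.92 of the others. DAN1, a hypoxic mannoprotein known to aid sterol uptake, spanned 5.82 log2 units; it lies on chromosome X and was 9.27 on MA3 replicate 1 and 9.95 on MA7 replicate 2, against 8.51 or less on the other 4 low-TIR1 arrays. Of the 8 genes of sterol uptake and storage, 2 were lower without overlap, AUS1 and DAN1, as were 1.51% of all tested probe sets, and ARE1, an acyltransferase that makes steryl esters, overlapped by 0.0075. ARE2, its paralog, had a median difference of 0.15.

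The oxygen and heme-controlled genes, a list that includes TIR1 itself, had a median span of 1.99. TIR1 parted the arrays by rule, and of the other 9 genes on this list TIR3, TIR4, HEM13 and ANB1 were lower without overlap, as were 1.51% of all tested probe sets. HEM13, the oxygen-consuming coproporphyrinogen oxidase of heme synthesis, had 10.55, 10.70 and 10.79 on the low-TIR1 arrays, against 11.06, 11.22 and 11.55 on the others. OLE1, the oxygen-consuming fatty acid desaturase, spanned 0.30 and had a median difference of -0.087, a size like those of the sterol genes. SCS7, a lipid hydroxylase that also consumes oxygen, had a median difference of -0.47 with overlapping arrays.

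**Figure D2:**
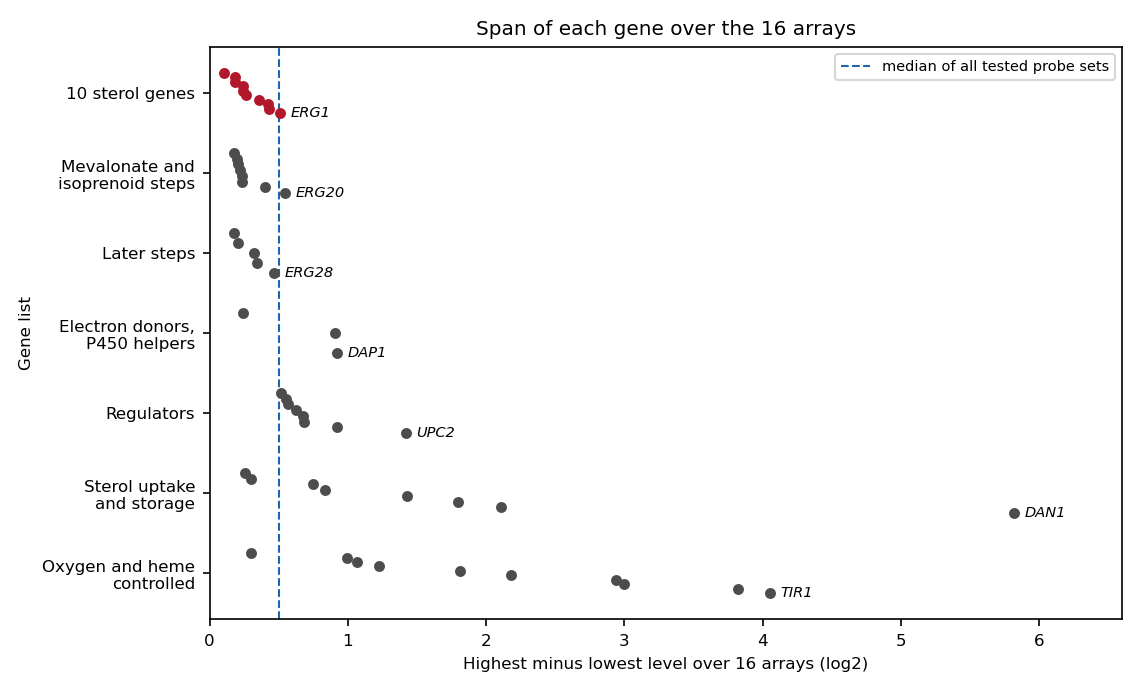
Span of each gene (highest minus lowest of 16 arrays, log2), by gene list, with 1 point per gene, the highest gene of each list named and the median of all tested probe sets (0.50) as a dashed line. All 10 sterol genes lie at 0.51 or less, while UPC2 reaches 1.42, TIR1 4.06 and DAN1 5.82.

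**Figure D3:**
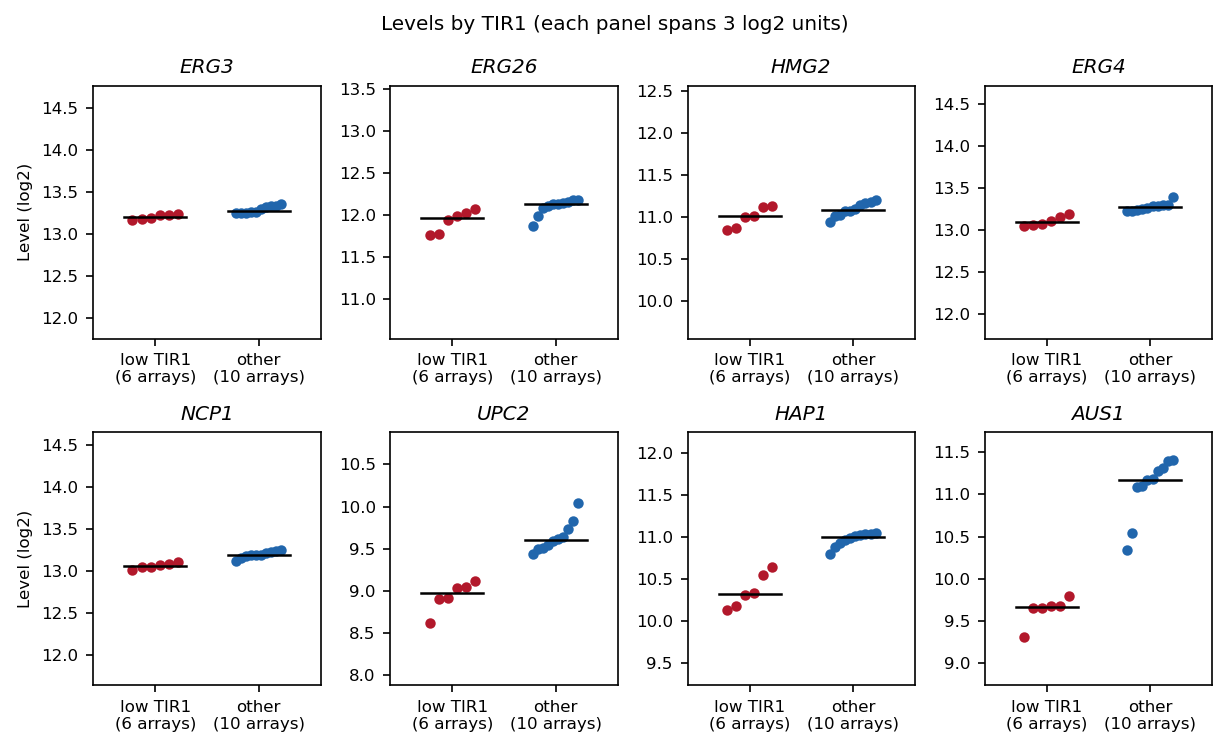
Levels (log2) on the 6 low-TIR1 arrays (left, red) and the other 10 arrays (right, blue), 1 point per array with the median as a line; every panel spans the same number of log2 units. ERG3, ERG4 and NCP1 are parted by gaps of 0.016, 0.038 and 0.013, whereas UPC2, HAP1 and AUS1 are parted by 0.33, 0.16 and 0.55.

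The comparison that the labels set up is each mutant against WT, which asks what an equivalent substitution in each subunit does to transcript levels. None of the 10 genes was called in any mutant, at an adjusted p under 0.05 in limma fitted to all 5498 tested probe sets, and 0% of tested probe sets were called in each comparison. In 6 of the 8 strains, WT included, 1 array had low TIR1 and the other did not, and this difference is part of the spread that limma used. URA3 opposed the label of WT replicate 2, used in every comparison, and of both MA6 arrays. The absence of calls therefore does not show that these genes were unchanged. Unadjusted, between 12 higher and 6 lower probe sets (MA5) and 251 higher and 384 lower (MA6) had a p under 0.05. The 70 log2 changes of the sterol genes ranged from -0.30 to 0.13. Their 95% intervals reached from -0.56 to 0.41, and these bounds are set by ERG26 in MA7 and ERG5 in MA6. At an unadjusted p under 0.05 there were 7, all lower in the mutant: HMG1 in MA2, MA6, MA7 and MA8, HMG2 in MA1 and MA6, and ERG26 in MA7. The 7 mutants share the same WT arrays, so these are not independent of each other. Among all 5498 tested probe sets, lower ones also outnumbered higher ones at this unadjusted p in the strains named. There were 172 lower and 55 higher in MA1, 29 and 12 in MA2, 379 and 114 in MA7, and 142 and 81 in MA8. The direction of these 7 changes was thus shared with most of the tested probe sets at this unadjusted p. The median change of the 10 genes was -0.011 in MA1, -0.041 in MA2, -0.035 in MA6, -0.14 in MA7 and -0.017 in MA8. Over all tested probe sets it was -0.012, -0.016, -0.00069, -0.029 and -0.013 in the same strains. Whether the sterol genes leaned lower than other genes was not tested.

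ERG26 was 11.87 and 11.78 in MA7, against 12.07 and 12.18 in WT. The log2 change was -0.30 ± 0.12 (SE) and the limma adjusted p was 0.53. All MA7 values lay below all WT values, but MA7 was chosen as the mutant with the largest absolute moderated t of ERG26. The share of tested probe sets parted in this way was not computed, so nothing is read from the order. Both MA7 arrays had lower ERG26 than any array except MA3 replicate 1. The order of the strain means ran from 12.16 ± 0.03 in MA8 and 12.12 ± 0.08 in WT through MA1, MA5, MA2 and MA6 to 11.93 ± 0.25 in MA3 and 11.82 ± 0.06 in MA7 (SD, n = 2 each), and every neighbouring pair in this order overlapped.

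HMG1 was 12.51 and 12.49 in MA7, against 12.73 and 12.67 in WT. In limma the difference was -0.20 ± 0.06 (SE), with an adjusted p of 0.53. Its strain means were highest in WT at 12.70 ± 0.04, followed by MA3 at 12.66 ± 0.05 and MA1 and MA5 at 12.62 and 12.61, and lowest in MA8 at 12.51 ± 0.04 and MA7 at 12.50 ± 0.01 (SD, n = 2 each). Each neighbouring pair overlapped. In the mean of the 7 mutants against WT, where 0% of tested probe sets were called, HMG1 differed by -0.13 ± 0.05 (SE) at an adjusted p of 0.68 in limma, and the median of the 10 genes was -0.033, with -0.012 for all tested probe sets.

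HMG2 was 10.85 and 10.94 in MA6, against 11.14 and 11.21 in WT. In limma the difference was -0.27 ± 0.08 (SE), with an adjusted p of 0.40. Both MA6 values lay below every WT value, from which nothing is read, since MA6 was chosen by its t and the share over all tested probe sets was not computed. Its strain means ran from 11.17 ± 0.05 in WT and 11.15 ± 0.04 in MA5 to 10.97 ± 0.14 in MA1 and 10.90 ± 0.07 in MA6 (SD, n = 2 each). Of the 7 neighbouring pairs in this order, MA3 at 11.06 and MA7 at 11.01 did not overlap.

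For each other gene the mutant with its largest moderated t is given. ERG1 was 13.11 and 12.94 in MA7, against 13.16 and 13.31 in WT, a change of -0.21 ± 0.13. The log2 change of ERG2 was -0.14 ± 0.08, that of ERG5 -0.14 ± 0.12 and that of ERG11 -0.13 ± 0.07, all in MA7, whose replicate 2 is one of the 2 arrays with raised chromosome X genes. Without that array the changes of ERG1, ERG2, ERG5 and ERG11 were -0.12, -0.052, -0.024 and -0.039. The change of ERG25 was -0.065 ± 0.068 in MA6, that of ERG3 0.053 ± 0.079 in MA8 and that of ERG6 -0.040 ± 0.057 in MA2 (± SE). The change of ERG25 was -0.011 without MA6 replicate 1 and -0.12 without MA6 replicate 2, and that of ERG3 was 0.012 without MA8 replicate 1 and 0.095 without MA8 replicate 2. The limma adjusted p of these 7 lay between 0.53 and 0.97. Strains of the ERG1 order overlapped except MA1 with MA6 and MA5 with MA7, and over the 10 genes 6 of 70 neighbouring pairs did not overlap. The share of such pairs over all tested probe sets was not computed, so nothing is read from this count.

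Whether the mutants differ from each other, the question in the title of the series, was tested with a moderated F test. None of the 10 genes was called, 0% of tested probe sets were called, and none of the 10 reached an unadjusted p under 0.05, as 147 of 5498 probe sets did. The smallest F adjusted p in limma was 0.89, for several genes including HMG2. Without the 6 arrays whose URA3 opposes the label, which leaves 1 WT array and no MA6 array, the limma change in MA7 was -0.25 for ERG26 (adjusted p = 0.48), -0.23 for HMG1 (0.29), -0.14 for ERG1 (0.75) and -0.060 for ERG5 (0.90), with the lone WT array assumed to vary like the other strains; HMG2 in MA6 then had no value. Of the pathway genes outside the 10, likewise none was called in any mutant.

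**Figure D4:**
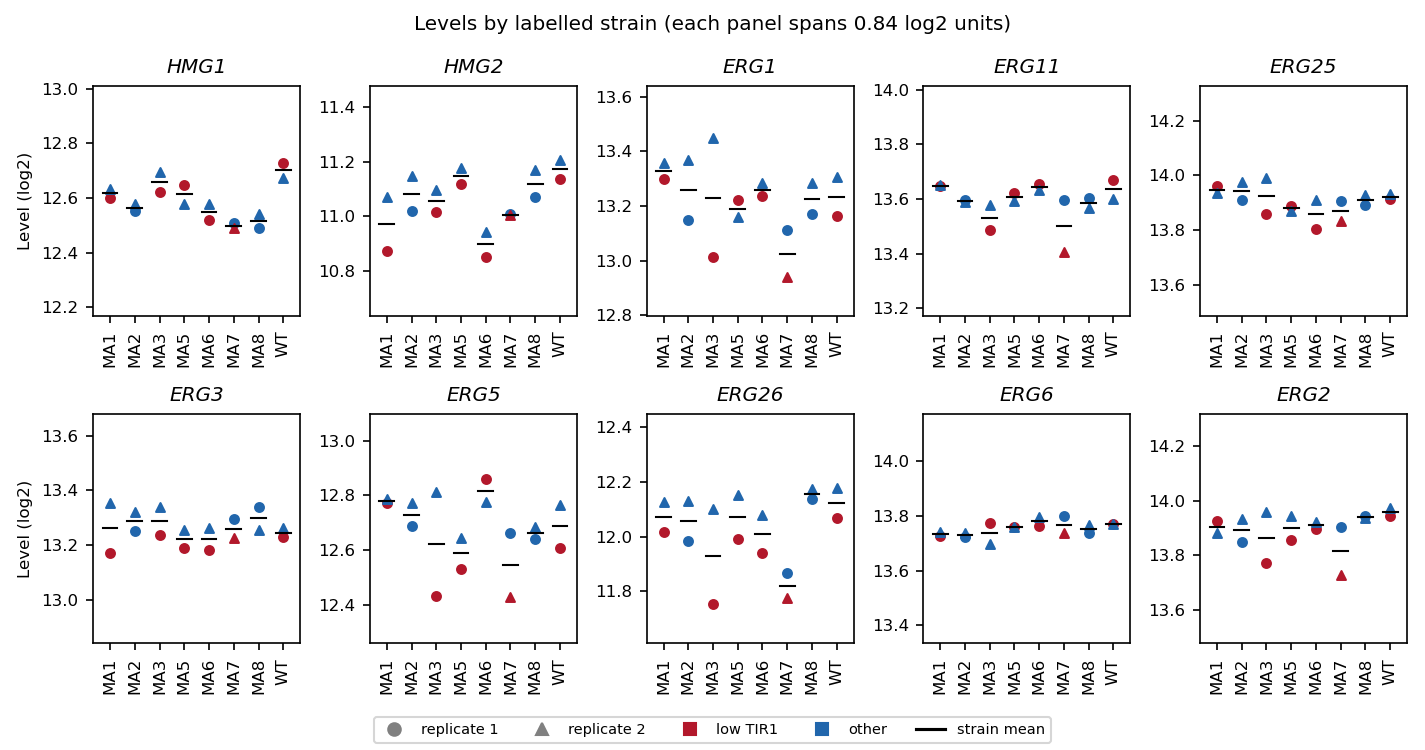
Level of each sterol gene (log2) on the 2 arrays of each labelled strain, mutants left and WT right, with replicate 1 as a circle, replicate 2 as a triangle, low-TIR1 arrays in red, other arrays in blue and the strain mean as a line. The widest difference within a label is that of ERG1 in MA3, at 13.01 and 13.45.

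**Figure D5:**
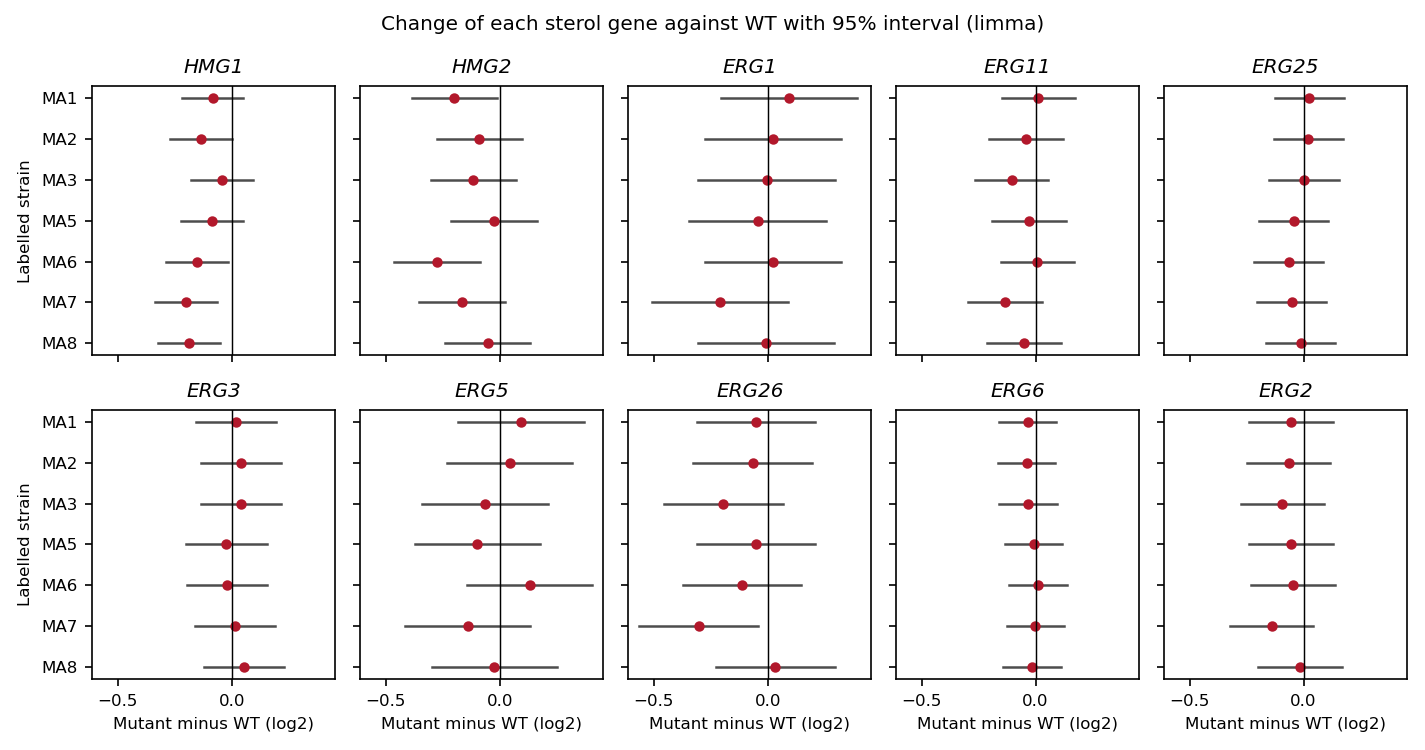
Log2 change of each sterol gene in each mutant against WT (point) with its 95% interval from limma (line). Points lie between -0.30 and 0.13, and 7 of the 70 intervals lie wholly below 0, that of HMG1 in MA2 by the least.

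Pairs of sterol genes moved together only in part. Over the 16 arrays the 45 pairs had a median Pearson r of 0.35 (from -0.38 to 0.85) and a median Spearman rho of 0.28, given as descriptions without a p because arrays of different labels resemble each other. Without MA3 replicate 1 and MA7 replicate 2 the median r was 0.18, and 4 pairs had an r over 0.5, against 14 over all arrays. ERG2 and ERG26 had the highest r, 0.85, and ERG1 and ERG5 had 0.83. ERG6, whose values hardly varied, had its closest member ERG11 at 0.12.

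The gene most like ERG26 among 5448 others was ERG28, with a Pearson r of 0.96 and a Spearman rho of 0.93 over 16 arrays, and 0.92 without MA3 replicate 1 and MA7 replicate 2. For the other 9 genes the closest gene was not of the pathway. Those closest were PMT3 (a protein mannosyltransferase) for HMG2 at 0.93, CRF1 (a corepressor of ribosomal protein genes) for ERG2 at 0.93, GCV2 (glycine cleavage) for ERG5 at 0.92, PMA2 (a plasma membrane proton pump) for ERG1 at 0.90, SET5 for ERG11 at 0.89, SKN7 (an oxidative stress regulator) for HMG1 at 0.86, HUR1 for ERG3 at 0.86, PIS1 (phosphatidylinositol synthase) for ERG25 at 0.80 and VPS38 for ERG6 at 0.68. Without the same 2 arrays the r of SET5 with ERG11 was 0.54. The closest of the other members ranked between 16, for ERG1 beside ERG25, and 1785, for ERG11 beside ERG6.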

How the data were processed

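Per the submitters' processing notes, the authors processed the arrays with Partek and RMA, whose versions are not given in the sources used here; the deposited values are on a log2 scale. Of 10928 probe sets, 5498 were paired with exactly 1 S. cerevisiae gene through the platform annotation and updated by Entrez ID against RefSeq. These were tested, with none removed as dim; 1746 belonged to S. pombe. A gene with several probe sets was represented by the one with the highest mean. Strains were compared with limma 3.58.1 in R 4.3.3, with 1 mean per strain and Benjamini-Hochberg adjustment over all tested probe sets, and the script was tested on simulated data. Descriptions used Python 3.11.15 with pandas 2.3.3. Arrays were parted by TIR1 at 11.5 log2.

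The genes, the lists around them and the tests were chosen with earlier results of these data known. The text names the 10 genes, the listed pathway, regulator, uptake, oxygen and lipid genes, and the gene with the highest Pearson r to each; strain changes are given for the mutant with a gene's largest absolute moderated t. Probe saturation cannot be read from the deposited values, and 2 arrays per strain limit precision. Same-numbered arrays had correlations of their deviations from -0.66 to 0.93 (median 0.035), over 0.1 in 7 of 28 pairs, so the numbers were not taken to pair samples. Alternatives were quantile normalization, a filter on dim probe sets, 1 probe set per gene, a variance trend and a replicate block. Others were the omission of each array, of the arrays with opposing URA3, or of 2 arrays with raised chromosome X genes. Parting the arrays at the widest gap in TIR1 gave the same 6 low-TIR1 arrays as the threshold, so it was no separate check.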

Additional observations from a re-analysis of the deposited data

How the results depend on the processing

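With the replicate block, with quantile normalization, without dim probe sets, with 1 probe set per gene, with a variance trend and without each array in turn, 0 probe sets were called in every strain comparison and among the mutants. Without the 6 arrays whose URA3 opposes the label, 1 WT array was left, and MA6 had no array left to give a value. URA3 then differed between WT and every remaining mutant, which the choice of arrays by URA3 fixed in advance. No calls are read from that fit. With quantile normalization 0 of the 10 sterol genes were without overlap between low-TIR1 and other arrays, and 1, ERG3, was with the deposited values. Leaving out each array in turn kept that count at 1. So did leaving out MA3 replicate 1 and MA7 replicate 2 together, or the 6 arrays with opposing URA3. Both were chosen for this count after seeing the data. An omission cannot make sets that do not overlap begin to overlap, so the count could not have fallen below 1 in these runs. With each array left out, the change of ERG26 in MA7 ranged from -0.36 to -0.25, that of HMG1 in MA7 from -0.23 to -0.17 and that of HMG2 in MA6 from -0.32 to -0.23. Those of ERG1 (-0.29 to -0.12), ERG2 (-0.23 to -0.052), ERG5 (-0.26 to -0.024) and ERG11 (-0.23 to -0.039) in MA7 were largest without MA7 replicate 1 and smallest without MA7 replicate 2. None of these changes turned its sign.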

Other observations

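Among genes of other isoprenoid branches, SRT1 and RER2 each had their 2 highest values on a pair of arrays that was highest for many genes, and COQ1 and BTS1 did not. SRT1, a cis-prenyltransferase of dolichol synthesis, reached 7.21 in MA1 replicate 1 and 7.33 in MA6 replicate 1, with no other array above 6.43. These were the 2 highest arrays for 17.8% of tested probe sets. SRT1 was dim, with a mean at percentile 4.69 of the tested probe sets. The array median was also highest on these 2 arrays, at 6.99 and 7.12, against at most 6.83 elsewhere. After quantile normalization SRT1 reached 6.92 on the low-TIR1 arrays, against at most 6.38 on the others. Whether an offset at low levels raised SRT1 on these 2 arrays was not tested. CYC7, the hypoxic cytochrome c isoform, was 11.11 in MA1 replicate 1 and 11.49 in MA6 replicate 1. It was at most 10.54 on the 10 arrays with higher TIR1. RER2, the other cis-prenyltransferase, was highest on MA5 replicate 1 at 10.48 and WT replicate 1 at 10.43, the 2 highest arrays for 23.4% of tested probe sets. COQ1, which makes the tail of ubiquinone, had a median of 11.31 on the low-TIR1 arrays and 11.29 on the others, and BTS1 8.36 on both.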
